A study of Drosophila melanogaster with 9 samples.

Results

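The lipase and lipid droplet genes bmm, Lip4, Hsl, Lsd-1, Lsd-2, mdy and Seipin, 7 genes of triglyceride storage and breakdown, were followed by name among the 11982 genes tested on arrays of skeletal muscle from male Drosophila melanogaster. In the annotation used, 6 of the 7 had a probe set of their own, 1 each, and no probe set was assigned to Hsl, which was not analysed here. RNA of 9 samples was hybridised to Affymetrix Drosophila Genome 2.0 arrays, 1 array per sample. The groups were 3 control samples, 3 samples labelled UAS-Foxo and 3 labelled UAS-Mnt, and the series describes the latter as overexpressing Foxo or Mnt specifically in muscle. UAS is an upstream activating sequence, a binding element for the yeast activator Gal4 that is placed beside a minimal promoter. The labels do not name the Gal4 line that drove it in muscle, the genotype of the control flies or the age of the flies at RNA extraction. All groups were kept at 25 °C on the same food, and RNA came from at least 15 males per group. In all groups the flies were collected within a window of 24 h and kept at 20 per vial. Per the labels, the replicates were separate biological samples.

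Triglyceride is stored in lipid droplets, which bud from the endoplasmic reticulum and carry a coat of perilipins. In flies bmm (brummer, the relative of mammalian adipose triglyceride lipase) begins the breakdown of stored triglyceride, and Hsl is a further lipase that acts at the droplet. Lip4 belongs to the acid lipase family. The perilipin Lsd-1 serves as the docking site for regulated lipolysis, the perilipin Lsd-2 protects stored fat, mdy (midway, a diacylglycerol acyltransferase) makes triglyceride, and Seipin shapes droplets where they leave the endoplasmic reticulum. Foxo, a transcription factor that insulin signalling keeps out of the nucleus, has been reported to raise bmm and Lip4 transcripts in flies. Mnt is a repressor that binds Max and opposes Myc.

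Values are RMA signals on the log2 scale, so a difference of 1 is a doubling, and they show the order of arrays for a probe set but not the order of genes. Arrays that stand apart are given first. The foxo signal was 9.05 to 9.50 in the controls, and 11.95 and 10.22 in Foxo replicates 1 and 3. In the array labelled Foxo 2 it was 9.52, close to the highest control. The Mnt signal was 9.85 in Mnt replicate 1 and 11.69 and 11.71 in Mnt replicates 2 and 3, against 8.41 to 8.57 in the controls. Foxo replicate 3 had a mean signal of 8.94 for 15 accessory gland markers, against 3.96 to 5.21 in the other arrays. The 13 measured muscle markers averaged 13.18 to 13.65 in all arrays. In bulk tissue, fewer cells of a type and less RNA per cell cannot be told apart.

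None of the 6 measured genes passed the test in any comparison, where passing means a limma adjusted p under 0.05 over the 11982 genes. The overexpressed genes themselves did not pass either. In Foxo versus control foxo had a log2 fold change of 1.24 ± 0.52 (SE, adjusted p = 0.279). In Mnt versus control Mnt had 2.61 ± 0.43 (adjusted p = 0.450). Not passing therefore does not show that a gene was unchanged. Over all genes, 0.1% passed in Foxo versus control, 0.134% in Foxo versus Mnt and 0% in Mnt versus control. At an unadjusted p under 0.05 the counts were 1 of 6, 1 of 6 and 0 of 6 in the same order, against 17.8%, 13.4% and 3.54% of all genes. The gene counted in both Foxo comparisons was mdy. It was also the only one of the 6 whose groups did not overlap in a comparison, being lower in all 3 Foxo arrays than in all 3 controls and all 3 Mnt arrays. Such a separation downwards was seen for 15.4% of all genes in Foxo versus control and 13.8% in Foxo versus Mnt, and upwards for 8.24% and 4.3%. In Mnt versus control it was seen for 5.24% of genes downwards and 3.67% upwards, and for none of the 6. These shares are near the background, so the counts show nothing particular to the lipase and droplet genes. With 3 arrays against 3, an exact permutation test of a single gene cannot give a p under 0.1.

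**Figure D1:**
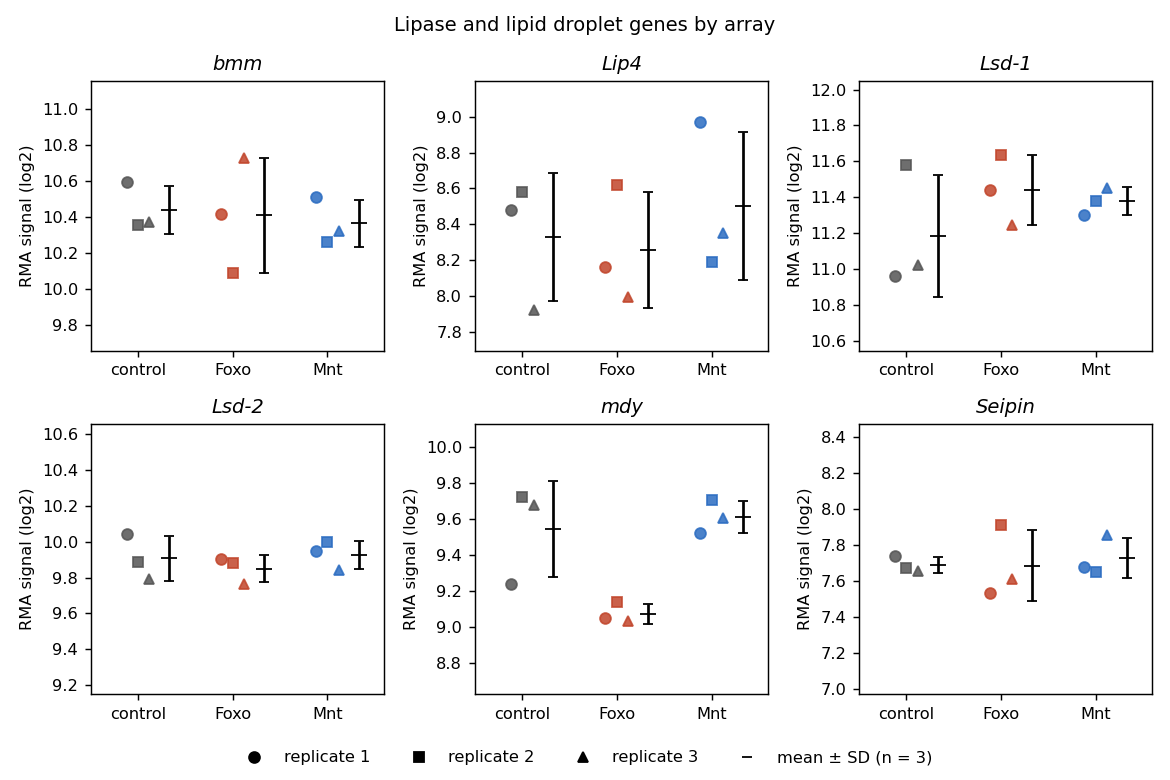
RMA signal (log2, vertical axis, each panel spanning the same number of log2 units) of the 6 measured genes in the control, Foxo and Mnt arrays. Symbols mark the replicate number, and the bar beside each group is the mean ± SD (n = 3). The Foxo arrays of mdy lie at 9.03 to 9.14, below all other arrays, and the groups overlap for the other genes.

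The lipases bmm and Lip4 showed no shift with Foxo that exceeded the spread between arrays. The signal of bmm was 10.59, 10.35 and 10.37 in control replicates 1 to 3, 10.42, 10.09 and 10.73 in the Foxo arrays, and 10.51, 10.26 and 10.32 in the Mnt arrays. The Foxo group held both the lowest and the highest bmm value of the series, and its lowest belonged to the array labelled Foxo 2. Between Foxo and control arrays, bmm differed by a log2 fold change of -0.03 ± 0.15 (SE, 3 arrays in each group, adjusted p = 0.927 by limma). Its 95% interval ran from 0.767 to 1.25 times the control level, so a doubling or a halving of the group mean lay outside it. Its sign turned on single arrays. Without the array labelled Foxo 2 the value was 0.13 ± 0.12 (adjusted p = 0.630), without control replicate 1 it was 0.05 ± 0.17 (adjusted p = 0.880), and without Foxo replicate 3 it was -0.19 ± 0.13 (adjusted p = 0.515). Foxo replicate 3, the array of highest bmm signal, was also that of the accessory gland mean of 8.94, and over the 9 arrays bmm and that mean had a Pearson correlation of 0.79, given as a description. The part of accessory gland transcripts in the bmm values was not tested. In Foxo replicate 1, which had the highest foxo signal, bmm lay within the range of the controls.

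Lip4 varied most of the 6 genes. Its signal was 8.48, 8.58 and 7.92 in the controls, 8.16, 8.62 and 7.9957 in the Foxo arrays, and 8.97, 8.19 and 8.35 in the Mnt arrays. The lowest value was a control and the highest was Mnt replicate 1, a span of 2.07 times on the linear scale, and all groups overlapped. For Lip4 the log2 fold change in Foxo versus control was -0.07 ± 0.26 (adjusted p = 0.893), with a 95% interval from 0.631 to 1.44 times. It was -0.25 ± 0.27 (adjusted p = 0.678) without the array labelled Foxo 2, and it turned positive without Foxo replicate 3, control replicate 1 or control replicate 2 (0.06, 0.01 and 0.06, none passing). Among all genes, 88.2% had a smaller within-group SD than Lip4, whose SD was 0.37, and the median SD was 0.14. For bmm that share was 77.7%.

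The fat body is the main fat store of the fly and a source of lipase transcripts, and its markers were read beside Lip4. The marker Lsp2, a storage protein made by fat body, ranged from 5.84 in control replicate 1 to 11.00 in control replicate 3. Lip4 was 8.48 and 7.92 in those arrays, and Lsp2 was 6.23 in Mnt replicate 1, where Lip4 was highest. In control replicate 2 both were high, with Lsp2 at 10.10 and Lip4 at 8.58, the highest control. Over the 9 arrays, as a description, Lip4 had a Pearson correlation of -0.76 with the mean of the fat body markers. That mean is moved mostly by Lsp2, which spanned 5.15 on the log2 scale. Obp99b spanned 1.29, while the bright markers apolpp, regucalcin, FASN1 and Apoltp spanned only 0.22, 0.39, 0.46 and 0.50. The correlation therefore does not measure fat body content as a whole. The mean of the 8 measured fat body markers was 9.68 to 10.60 in the controls, 9.89 to 10.34 in the Foxo arrays and 9.71 to 10.52 in the Mnt arrays, so the groups overlapped. Another fat body marker, Fbp1, stayed between 4.44 and 4.79, near the lower quartile of all signals (4.18 to 4.31 by array). With the mean of the 6 fat body markers outside the lipid lists as a covariate, the SE of Lip4 in Foxo versus control was 0.18 in place of 0.26, with a log2 fold change of -0.07 (adjusted p = 0.835).

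The perilipins and Seipin, which coat and form the droplet, also overlapped between groups. Lsd-1 lay at 10.96, 11.58 and 11.02 in the controls, 11.44, 11.63 and 11.25 in the Foxo arrays, and 11.30, 11.38 and 11.45 in the Mnt arrays. Control replicates 1 and 3 were the lowest of the series, while control replicate 2 lay among the highest. Lsd-1 had a log2 fold change of 0.25 ± 0.16 in Foxo versus control (adjusted p = 0.412) and 0.19 ± 0.16 in Mnt versus control (adjusted p = 0.999), both computed against the same 3 controls. Without control replicate 2 these values were 0.45 and 0.39, and neither passed.

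Lsd-2 was the steadiest of the 6. It lay at 10.04, 9.89 and 9.79 in the controls, 9.90, 9.88 and 9.77 in the Foxo arrays, and 9.94, 10.00 and 9.84 in the Mnt arrays, a span of 1.21 times over the whole series. For Lsd-2, Foxo versus control gave -0.06 ± 0.08 (adjusted p = 0.692), with a 95% interval from 0.850 to 1.09 times. Only 21.6% of all genes had a smaller within-group SD. Seipin lay at 7.74, 7.67 and 7.66 in the controls, 7.53, 7.91 and 7.61 in the Foxo arrays, and 7.68, 7.65 and 7.86 in the Mnt arrays. Its Foxo arrays spread to both sides of the controls, with the highest value in the array labelled Foxo 2. Seipin had a log2 fold change of 0.00 ± 0.11 in Foxo versus control (adjusted p = 0.986), with a 95% interval from 0.839 to 1.19 times.

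The acyltransferase gene mdy, which completes triglyceride synthesis, had the lowest signals in the Foxo group. It lay at 9.24, 9.72 and 9.68 in the controls, 9.05, 9.14 and 9.03 in the Foxo arrays, and 9.52, 9.70 and 9.61 in the Mnt arrays. The 3 Foxo arrays lay within 1.07 times of each other and below the other 6, and the highest of the 3 was the array labelled Foxo 2. Control replicate 1 was the nearest array above them. Foxo versus control gave a log2 fold change of -0.47 ± 0.12 (SE, adjusted p = 0.276), which is 0.720 times the control level. In Foxo versus Mnt it was -0.54 ± 0.12 (adjusted p = 0.165). In Mnt versus control it was 0.07 ± 0.12 (adjusted p = 0.999). Ranked by p, mdy was number 198 of the 11982 genes in Foxo versus control and number 155 in Foxo versus Mnt, and neither adjusted p passed.

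Of the arrays left out in turn, control replicate 1 moved the fold change of mdy in Foxo versus control most. Without it Foxo versus control gave -0.63 ± 0.07 with an adjusted p of 0.0506, and Foxo versus Mnt, whose fold change does not use the controls, gave an adjusted p of 0.0536. Without the array labelled Foxo 2 the values were -0.51 ± 0.14 (adjusted p = 0.422) and -0.57 ± 0.14 (adjusted p = 0.288). The probe set of mdy carries the suffix _s_at, which Affymetrix gives to probe sets whose probes may match more than a single transcript, so its signal may not come from mdy alone.

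**Figure D2:**
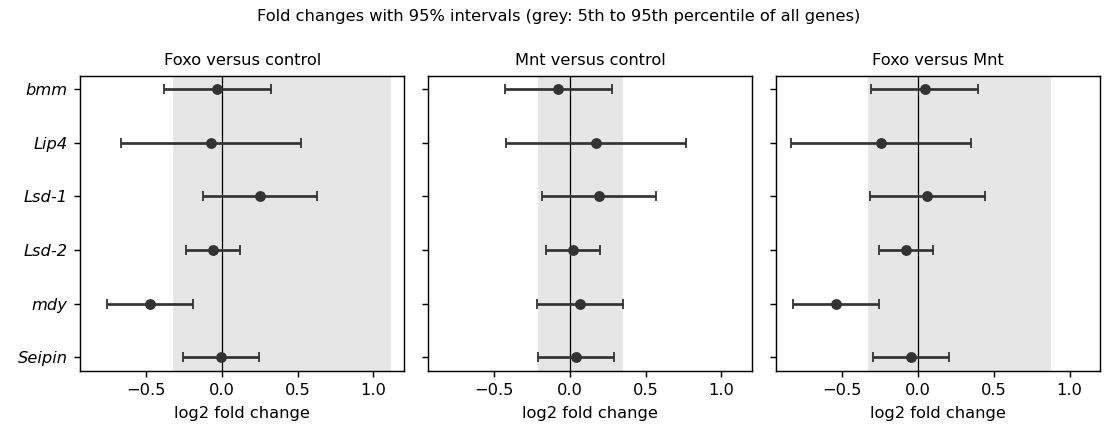
Log2 fold change (horizontal axis) of the 6 measured genes in the 3 comparisons, with points for the estimates, bars for their unadjusted 95% intervals from limma, and grey bands from the 5th to the 95th percentile of all 11982 genes. Only the bars of mdy in the Foxo comparisons leave out 0, at -0.47 and -0.54, and neither passes after adjustment over all genes.

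Levels of markers of other tissues were read beside mdy. The mean of the 10 measured haemocyte markers was 8.38 to 8.48 in the Foxo arrays, 8.56 to 8.88 in the controls and 8.62 to 8.74 in the Mnt arrays, so the Foxo arrays were lowest here as for mdy. In Foxo versus control 9 of these 10 markers were lower and 0 passed, and in Foxo versus Mnt all 10 were lower and 1 passed, NimC1. NimC1, a phagocytic receptor singled out after its values were seen, lay at 7.89 to 8.12 in the Foxo arrays and at 8.75 to 9.29 in all others. The mean of the 21 measured testis markers was 6.91 to 7.75 in the Foxo arrays, 5.13 to 6.94 in the controls and 5.15 to 7.30 in the Mnt arrays, and 18 of the 21 were higher in Foxo versus control with 0 passing. The mean of the 17 measured gut markers was 9.74 to 9.97 in the Foxo arrays, 8.48 to 9.93 in the controls and 8.37 to 9.47 in the Mnt arrays. Of the 17, 16 were higher in Foxo versus control with 0 passing. Control replicate 1, the control lowest in mdy, had the highest testis and gut means of the controls and the lowest haemocyte mean. Its neuron mean of 7.76 was also the highest of the controls, although the Foxo arrays lay below all controls in that mean. Its muscle mean of 13.19 was the lowest of the controls, beside 13.18 to 13.65 in the Foxo arrays. The 8 measured neuron markers averaged 7.41 to 7.63 in the Foxo arrays, 7.70 to 7.76 in the controls and 7.52 to 7.77 in the Mnt arrays, with 7 of 8 lower in Foxo versus control and 0 passing. With the testis mean as a covariate, the log2 fold change of mdy was -0.34 ± 0.14 in Foxo versus control (adjusted p = 0.736) and -0.43 ± 0.13 in Foxo versus Mnt (adjusted p = 0.381). The part of haemocyte, gut and neuron transcripts in the mdy difference was not tested.

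**Figure D3:**
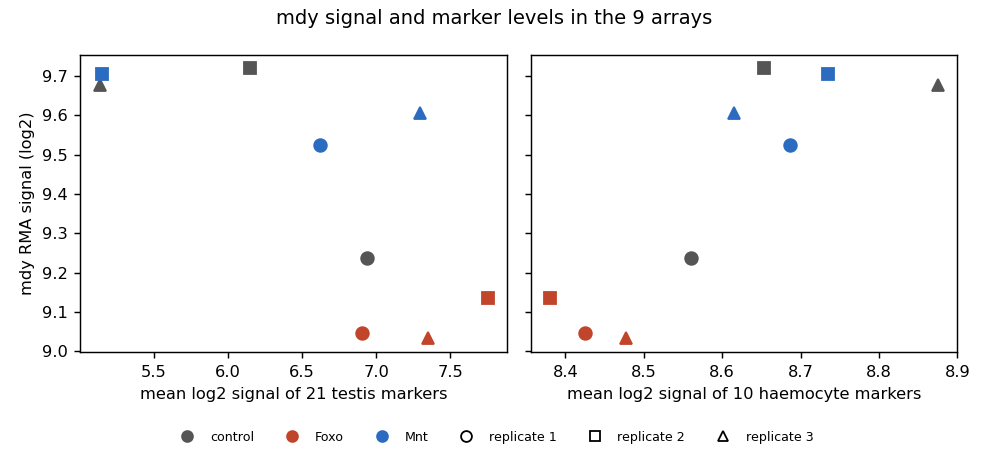
RMA signal of mdy (log2, vertical axis) against the mean log2 signal of 21 testis markers (left) and 10 haemocyte markers (right), with 1 point per array, colour for the group and symbol for the replicate number. The 3 Foxo arrays lie at the bottom of both panels, at haemocyte means of 8.38 to 8.48, and Mnt replicate 3 combines a testis mean of 7.30 with an mdy signal of 9.61.

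The other genes of lipid storage and use were read from 7 lists that together name 79 genes, of which 64 besides the 6 were measured. None of the 64 passed in any comparison, and 7, 2 and 10 had an unadjusted p under 0.05 when Foxo was compared with control, Mnt with control, and Foxo with Mnt, beside 17.8%, 3.54% and 13.4% of all genes. Of the 64, 25 were higher and 39 lower in the Foxo arrays than in the controls, beside a median log2 fold change of -0.06 over all genes. The smallest adjusted p in both Foxo comparisons belonged to the same gene, Fitm.

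Fitm encodes an endoplasmic reticulum protein needed to package fat into droplets. It lay at 8.67, 8.53 and 8.61 in the controls, at 9.24, 9.12 and 8.88 in the Foxo arrays, and at 8.53, 8.56 and 8.35 in the Mnt arrays. All 3 Foxo arrays lay above the other 6. The log2 fold change was 0.48 ± 0.10 in Foxo versus control (adjusted p = 0.202) and 0.60 ± 0.10 in Foxo versus Mnt (adjusted p = 0.115). The droplet list had 7 measured genes with a median of 0.00 in Foxo versus control, and its brightest probe set was that of Ldsdh1, a droplet dehydrogenase, with -0.08 ± 0.06. Jabba, a droplet protein that binds histones and was singled out after its values were seen, lay at 10.10 to 10.39 in the Foxo arrays and at 10.01 to 10.05 in the controls. Its log2 fold change was 0.23 ± 0.09 (adjusted p = 0.276).

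Among the 7 measured intracellular lipases and their cofactors the median was -0.07 in Foxo versus control, with 6 lower, and 0.10 in Mnt versus control, with 5 higher. The fold change farthest from 0 and the brightest probe set were those of puml, the fly relative of the mammalian lipase cofactor family ABHD4 and ABHD5. The puml signal was 10.98, 10.93 and 11.15 in the controls, 10.64, 10.43 and 10.93 in the Foxo arrays, and 11.10, 11.10 and 11.17 in the Mnt arrays. The Foxo arrays lay below all Mnt arrays and met the lowest control at 10.93. The log2 fold change was -0.35 ± 0.12 against control (adjusted p = 0.276) and -0.46 ± 0.12 against Mnt (adjusted p = 0.213).

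In the triglyceride synthesis list all 12 genes were measured, 6 were higher and 6 lower in Foxo versus control, and the median was -0.01. Of the 12, only mdy had Foxo arrays that did not overlap the controls. Dgat2, which catalyses the same final step as mdy and was singled out for that, had -0.24 ± 0.15 in Foxo versus control (adjusted p = 0.399) with overlapping groups. Lpin, the phosphatidate phosphatase that supplies diacylglycerol, had the brightest probe set of the list and a log2 fold change of -0.03 ± 0.14. In Mnt versus control Lpin had -0.21 ± 0.14 (adjusted p = 0.999), and its 3 Mnt arrays, at 10.64 to 10.66, lay below the controls at 10.80 to 10.95.

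**Figure D4:**
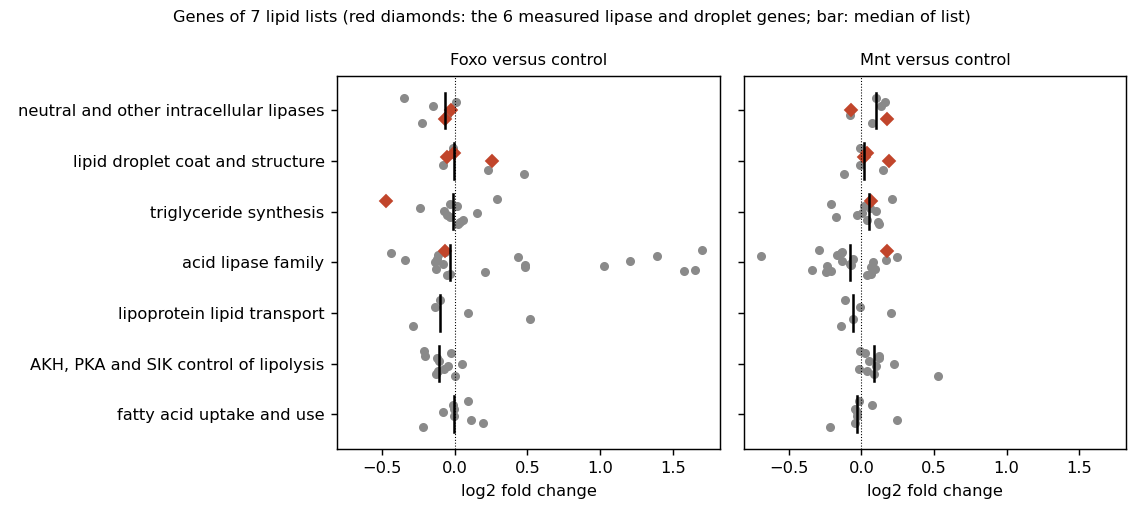
Log2 fold change (horizontal axis) of each measured gene of 7 lipid lists in Foxo versus control (left) and Mnt versus control (right). Each point is a gene, red diamonds are the 6 lipase and droplet genes, and black bars are list medians. Acid lipases reach 1.70 in Foxo versus control, where the points of CG18284, CG17097 and CG31872 (1.65, 1.58 and 1.21) rest on Foxo replicate 3. Those of CG8093 (1.39) and CG2772 (1.03) do not rest on that array alone. The lowest point of that panel is mdy at -0.47.

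The acid lipase family, to which Lip4 belongs, had 21 measured genes with a median of -0.035 in Foxo versus control and of -0.08 in Mnt versus control. Its range in Foxo versus control ran from -0.44 to 1.70. The upper end was mag (magro, a lipase secreted in the gut), which also had the brightest probe set. The mag signal was 7.15 to 10.12 in the controls, 9.57 to 10.88 in the Foxo arrays and 6.91 to 10.12 in the Mnt arrays, with a log2 fold change of 1.70 ± 0.93 (adjusted p = 0.342). The 17 measured gut markers, mag among them, averaged 9.74 to 9.97 in the Foxo arrays, 8.48 to 9.93 in the controls and 8.37 to 9.47 in the Mnt arrays, with 16 of 17 higher in Foxo versus control and 0 passing. The part of gut transcripts in the mag difference was not tested. Of the other high values of the family, those of CG18284, CG17097 and CG31872 (1.65, 1.58 and 1.21), singled out after their values were seen, rested on Foxo replicate 3. Their signals there were 9.81, 10.40 and 7.02, while none exceeded 5.67 in any other array, and this was the array with the high accessory gland mean. CG8093 and CG2772, also singled out after their values were seen, had 1.39 ± 0.89 (adjusted p = 0.409) and 1.03 ± 0.83 (adjusted p = 0.501). CG8093 lay at 7.67, 8.88 and 8.63 in the Foxo arrays and at 5.56 to 8.06 in the controls. CG2772 lay at 4.72, 6.72 and 6.67 in the Foxo arrays and at 3.75 to 5.96 in the controls. Of the 21 genes, 10 were higher and 11 lower in Foxo versus control. CG18302 alone had all Foxo arrays above the controls and CG18301 alone had all below, beside 8.24% and 15.4% of all genes. Both were singled out after their values were seen. CG18302 lay at 8.44 to 8.70 in the Foxo arrays, 7.80 to 8.34 in the controls and 7.96 to 8.35 in the Mnt arrays. Its log2 fold change was 0.48 ± 0.15 (adjusted p = 0.276), and 0.42 ± 0.15 against Mnt (adjusted p = 0.319). Lip4 itself, at 0.953 times the control level, stood near the median of the family.

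In the list of lipoprotein transport the median of 5 genes was -0.10 in Foxo versus control. LpR1, a lipophorin receptor, had the largest value at 0.52 ± 0.24 (adjusted p = 0.293), with 11.24, 10.25 and 11.03 in the Foxo arrays and 10.11 to 10.58 in the controls. The array labelled Foxo 2 was within the control range and the other two Foxo arrays were above it. The lipophorin gene apolpp, the brightest of the list, had -0.10 ± 0.06. Apoltp, a lipid transfer particle gene singled out after its values were seen, had -0.29 ± 0.09 (adjusted p = 0.276), with 10.56 to 10.87 in the Foxo arrays and 10.88 to 11.06 in the controls.

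The list of adipokinetic hormone, PKA and SIK signalling, which controls lipolysis through the lipases and perilipins above, had 11 measured genes. Of these, 10 were lower in Foxo versus control (median -0.11) and 9 were higher in Mnt versus control (median 0.08), each against the same controls. All 11 were lower in Foxo versus Mnt (median -0.18), and none passed. Over all genes the medians were -0.06 in Foxo versus control, -0.0016 in Mnt versus control and -0.04 in Foxo versus Mnt. The share of all genes that were lower was not counted. The adenylyl cyclase rut had the largest value in Foxo versus control at -0.21 ± 0.13, and the kinase subunit Pka-C3, the brightest, had -0.11 ± 0.08. The list of fatty acid uptake and use had 8 measured genes with medians of -0.005 in Foxo versus control and -0.03 in Mnt versus control. The acyl-CoA oxidase Acox57D-d was 7.10 to 7.38 in the controls, 6.93 to 7.09 in the Foxo arrays and 6.98 to 7.07 in the Mnt arrays. Both overexpression groups lay below the controls, with log2 fold changes of -0.22 ± 0.09 (adjusted p = 0.279) and -0.22 ± 0.09 (adjusted p = 0.999). The fatty acid binding protein gene fabp, the brightest of the list, had -0.01 ± 0.16 in Foxo versus control.

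The 6 genes did not share a common pattern over the 9 arrays. As a description over these arrays, which include all 3 groups, Pearson correlations between pairs of the 6 ranged from -0.62 for bmm with Lsd-1 to 0.49 for Lip4 with Lsd-2. The pair of bmm and Lip4 had -0.17, and that of mdy and Seipin had 0.08. The genes most like each member among all genes were also found. For mdy they were CG13192 (r = 0.98), GlcAT-S (0.98) and CG15695 (0.97), and CG13192 lay at 7.33 to 7.54 in the Foxo arrays and at 7.56 to 7.98 in all others. For bmm they were Fem-1 (0.95), Atet (0.93) and Rip11 (0.93), whose signals spanned at most 0.35 on the log2 scale. For Lip4 they were Ppcs (0.91), Gr98b (0.90) and Mes2 (0.90), and for Lsd-1 they were Obp57a (0.96), CG9304 (0.91) and Nnf1a (0.91). For Lsd-2 they were CG15923 (0.93), CG34224 (0.92) and CG14877 (0.89), and for Seipin CG43312 (0.91), CG31826 (0.90) and CG7352 (0.87). None of these 18 genes is in the 7 lipid lists, and each was picked for its correlation from all other genes, so the values describe these arrays only.

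In Mnt versus control the 6 genes lay close to 0, with 5 higher and 1 lower and a median log2 fold change of 0.05, beside a median of 0.00 over all genes. The largest values were those of Lsd-1 and Lip4 (0.19 ± 0.16 and 0.17 ± 0.26). Without Mnt replicate 1, the Mnt array with the lowest Mnt signal, Lip4 was -0.06, and without control replicate 3 it was -0.03. The value of bmm was -0.08 ± 0.15, with a 95% interval from 0.743 to 1.21 times the control level. For mdy the interval was 0.861 to 1.27 times. Acsl and HDAC4, singled out after their values were seen, had the only unadjusted p under 0.05 among the lipid lists here. Acsl, which activates long-chain fatty acids, lay at 9.44 to 9.46 in the Mnt arrays and at 9.10 to 9.35 in the controls (0.25 ± 0.08, adjusted p = 0.999). HDAC4, the deacetylase that acts on Foxo downstream of SIK kinases, lay at 8.45 to 8.62 in the Mnt arrays and at 8.20 to 8.40 in the controls (0.23 ± 0.10, adjusted p = 0.999).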

How the data were processed

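The authors deposited log2 signals, and the submitters' processing notes name RMA as the tool. This method usually equalises the distributions of the arrays, which would hide a shift common to most transcripts. The log2 values, from 2.62 to 14.84, were used as deposited. No version of RMA is stated. Arrays have no sequencing depth, and precision is set by having 3 of them in each group. Of 18952 probe sets, 183 controls were left out, and 13647 had exactly 1 gene in the platform annotation, 402 had several and 4720 were not listed. A gene was represented by its probe set of highest mean, which gave 11982 genes. Symbols were checked through Entrez identifiers against the Release 6 plus ISO1 MT annotation.

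Groups came from the sample titles. All 9 arrays entered a single fit in limma 3.58.1 (R 4.3.3; lmFit, and eBayes with an intensity trend, 6 residual degrees of freedom), with two-sided tests and Benjamini-Hochberg adjustment over the 11982 genes at 0.05. As a check of the code, values were drawn from the means and SDs of these genes. Among 100 genes given a log2 shift of 1, the fit of Foxo versus control called 86%. For 100 genes given a shift of 2 it called 92%, and 11 of its 189 calls were false. These percentages hold for the drawn values and do not measure the sensitivity of the real arrays. There foxo, at 1.24 in Foxo versus control, and Mnt, at 2.61 in Mnt versus control, did not pass. The lists of 7 lipid pathways and 8 tissues, the alternatives and the 6 measured genes were chosen with earlier results of these data known. Named from each pathway list were the genes of largest absolute fold change in Foxo versus control and of highest mean signal, since none passed, and the 3 genes most correlated with each measured lipase or droplet gene. Other names were chosen after their values were seen. The markers and scores are means of log2 signals. The neuron and oenocyte lists among the 8 tissues were read like the others, and the oenocyte mean was 8.59 to 9.15 in the Foxo arrays and 8.23 to 9.12 in the controls. Same-numbered arrays of different groups had correlations of their deviations from the group means between -0.70 and 0.11. For arrays of different number and group these ran from -0.71 to 0.70, so the check cannot settle whether the numbers pair the samples.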

Additional observations from a re-analysis of the deposited data

How the results depend on the processing

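Across 20 alternatives per comparison, 0 of the 360 values of the 6 genes passed, with a smallest adjusted p of 0.0506, and 334 kept their sign. The other 26 changed sign while staying unpassed, 21 of them on leaving out an array. With array weights bmm became 0.10 in Foxo versus control and mdy -0.0126 in Mnt versus control. With arrays centred on their medians, which moves the median of all genes by -0.10 in Foxo versus control, Lsd-2 and Seipin became -0.0221 and -0.0035 in Mnt versus control and bmm -0.0142 in Foxo versus Mnt. Leaving out each array gave these ranges. In Foxo versus control, bmm ran from -0.19 to 0.13, Lip4 from -0.27 to 0.0622, Lsd-2 from -0.11 to 0.0099 and Seipin from -0.12 to 0.0718. In Mnt versus control, bmm ran from -0.15 to 0.0025, Lip4 from -0.0604 to 0.33, Lsd-2 from -0.0362 to 0.0879, mdy from -0.0874 to 0.15 and Seipin from -0.0242 to 0.0784. In Foxo versus Mnt, bmm ran from -0.11 to 0.21, Lsd-1 from -0.0347 to 0.16 and Seipin from -0.16 to 0.0323.

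Over all genes, Foxo versus control called 12 and Foxo versus Mnt 16. These counts were 0 and 1 with the replicate number as a block (replicate block), 0 and 0 with only the 6 arrays compared, 4 and 5 without the intensity trend, 28 and 31 with centred arrays, 19 and 27 with every probe set tested, and 7 and 6 with the testis score. With the fat body score Foxo versus Mnt called 6. Leaving out each array gave 0 to 13, 0 to 14 and, for Mnt versus control, 0 to 1 calls. Why the counts moved was not tested. The sample titles give replicate numbers but state no pairing, and with the block the adjusted p of mdy was 0.396 in Foxo versus control. No alternative changed a call among the 6 genes. Without a measured probe set for Hsl, nothing is known here of its level, and with 3 arrays per group the intervals of bmm still held 0.767 to 1.25 times control in Foxo and 0.743 to 1.21 times in Mnt.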
